A study of Mus musculus with 14 samples.

Results

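Expression of 10 genes that interleukin-4 is known to induce in mouse macrophages and other responding cells was followed across all libraries of a mouse dermatitis study. They were listed by name, but with earlier results of these data known. The list holds 7 products of alternative activation (Arg1, Chil3, Retnla, Ear2, Alox15, Pdcd1lg2 and Serpinb2) and 3 feedback inhibitors of cytokine signalling (Cish, Socs1 and Socs3). All 10 of these members were among the 35328 genes in the deposited table, and all 10 passed the filter on low counts that left 20940 genes for testing.

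Polyadenylated RNA was sequenced from frozen neck skin of C57BL/6J mice labelled female, in 14 libraries of 5 groups. MC903 (calcipotriol, a vitamin D analogue in ethanol that provokes dermatitis in mice) had been painted on the neck every day for 6 days in 4 of the groups. The MAR1 group, 3 wild-type mice aged 6 weeks, was injected intraperitoneally every other day with 20 µg of MAR1, an antibody to the IgE receptor FcεRIα that is used to deplete basophils, and its reference of 3 mice received the same dose of isotype antibody; injections began before MC903. The cKO group, 3 mice in which Pdgfra-Cre deletes floxed Il4ra, was set against 3 Il4ra fl/fl mice without the Cre, all aged 6 to 7 weeks and painted with MC903 but given no antibody. The last group was 2 libraries of untreated wild-type skin at 6 weeks. The series' design gives 1 mouse per sample, but the names of the untreated libraries differ by a suffix alone, so whether they are separate mice is uncertain, and the design also speaks of vehicle where the labels say untreated. Pdgfra-Cre is active in fibroblasts and other mesenchymal cells, so other cell types of cKO skin, macrophages included, keep the receptor gene.

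Interleukin-4 and interleukin-13 bind receptors that share the chain encoded by Il4ra, and the JAK kinases attached to those receptors phosphorylate STAT6. In mouse macrophages this programme, called alternative activation, switches on secreted enzymes, lectins and cell-surface ligands. Cytokine signals also induce proteins of the SOCS family, which bind the receptors or the JAK kinases and damp the signal. In bulk skin fewer cells of a type and less RNA per cell cannot be told apart.

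STAT proteins bind DNA elements made of TTC and GAA separated by a short spacer. Promoter windows of 300 bases, 250 before the annotated start and 50 after it, were read from RefSeq (mouse build GRCm38.p6), which held windows for 8 of the 10 members; Arg1 and Alox15 had none in that set. The letters TTCNNNGAA, the spacing read by most STAT proteins, were found in 8.3% of 32851 mouse windows and TTC and GAA 4 bases apart, the spacing that STAT6 prefers, in 6.95%. Both patterns read the same on either strand, and 6 of the 8 members held at least 1 of them, against 14.6% of all windows. The windows of 4 genes are shown, 5′ to 3′ on the strand of the gene with matches in capitals, because those genes carry the main results: Cish (chr9:107296409-107296708, plus strand), Socs3 (chr11:117969317-117969616, minus strand), Chil3 (chr3:106167515-106167814, minus strand) and Retnla (chr16:48842359-48842658, plus strand).
Cish: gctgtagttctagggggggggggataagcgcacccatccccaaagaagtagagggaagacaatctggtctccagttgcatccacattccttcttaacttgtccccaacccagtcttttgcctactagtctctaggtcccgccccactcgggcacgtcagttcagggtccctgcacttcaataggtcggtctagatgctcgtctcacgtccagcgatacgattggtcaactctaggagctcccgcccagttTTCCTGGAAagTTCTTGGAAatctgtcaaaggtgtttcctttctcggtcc
Socs3: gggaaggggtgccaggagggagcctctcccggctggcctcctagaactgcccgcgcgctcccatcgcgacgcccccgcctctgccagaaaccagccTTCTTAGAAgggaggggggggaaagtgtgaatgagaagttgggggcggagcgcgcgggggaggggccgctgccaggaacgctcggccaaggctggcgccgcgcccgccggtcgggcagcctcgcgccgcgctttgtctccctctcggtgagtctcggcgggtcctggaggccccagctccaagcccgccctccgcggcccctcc
Chil3: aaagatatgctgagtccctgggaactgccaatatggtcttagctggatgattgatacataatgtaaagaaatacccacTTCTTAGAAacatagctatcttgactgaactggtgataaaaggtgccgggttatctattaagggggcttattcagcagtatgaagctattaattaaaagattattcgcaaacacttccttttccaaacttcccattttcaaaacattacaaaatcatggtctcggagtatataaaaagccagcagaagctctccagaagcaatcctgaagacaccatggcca
Retnla: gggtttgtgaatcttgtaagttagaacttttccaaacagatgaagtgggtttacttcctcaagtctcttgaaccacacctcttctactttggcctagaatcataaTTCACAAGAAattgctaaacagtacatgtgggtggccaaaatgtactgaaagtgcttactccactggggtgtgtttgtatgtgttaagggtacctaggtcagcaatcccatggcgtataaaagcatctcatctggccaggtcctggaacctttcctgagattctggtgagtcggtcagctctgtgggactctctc
Cish held 2 copies of the 3-base spacing, at +1 to +9 and +12 to +20 counted from the first transcribed base. Socs3 held TTCTTAGAA at -154 to -146, and Chil3 held the same letters at -172 to -164. The match of Retnla had the 4-base spacing, TTCACAAGAA at -145 to -136, and Pdcd1lg2 held TTCCTCAGAA at -82 to -73. Serpinb2 held TTCCAAGAA, while the windows of Ear2 and Socs1 held neither pattern. The windows of Socs3 and Serpinb2 lay inside the annotated genes, whose 5′ ends are at 117970336 and 107500892. Positions in these windows are thus counted from internal starts. A match of letters is a description and not a site of binding.

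Depth differed between the groups, with 5781757 to 10625876 estimated counts in MAR1 libraries against 34330783 to 35595261 in isotype libraries, and 16501941 to 30830666 in cKO against 45126343 to 48004732 in fl/fl. The untreated libraries held 55299671 and 37521440. The 1984 olfactory and vomeronasal receptor genes, which have no known broad role in skin, took 3.86 to 9.29% of counts in MAR1 libraries against 0.269 to 0.439% in isotype libraries, and 0.467 to 2.58% in cKO against 0.0479 to 0.0768% in fl/fl. In both pairs these shares did not overlap, so the antibody or the genotype and this feature of the libraries cannot be told apart. Fl/fl libraries 1 and 2 carried salivary gland transcripts (summed 778.6 and 11410 CPM, against 0.118 CPM in fl/fl 3) and lymphocyte transcripts. B cell markers summed to 1259, 233 and 1.86 CPM in fl/fl 1, 2 and 3. One of the 3 cKO libraries, cKO 1, carried the Y-linked transcripts Ddx3y (69.8 CPM) and Eif2s3y (53.3 CPM) although all mice were labelled female. The other Y-linked genes listed, Uty and Kdm5d, were on average highest in MAR1 libraries, where Ddx3y and Eif2s3y were at 0. Uty averaged 449 CPM in MAR1 and 24.7 CPM in isotype libraries, and Kdm5d 48.6 and 4.95 CPM. Levels are given below in CPM, the count of a gene relative to the scaled size of its library, which allows a gene to be compared between libraries but not with another gene. Log2 fold changes are from edgeR's quasi-likelihood test, fitted over all 14 libraries, with standard errors and with p-values adjusted by the Benjamini-Hochberg method over all tested genes. Genes called changed had an adjusted p under 0.05.

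Il4ra, the gene that the Cre deletes, was at 70.6, 67.7 and 14.5 CPM in cKO skin, against 214, 145 and 176 CPM in fl/fl skin. It fell 3.5-fold (log2 fold change -1.81 ± 0.57, adjusted p = 0.0427, edgeR), with every cKO library below every fl/fl library. Each of the 6 fits that left out 1 library of the pair lost that call (adjusted p 0.0524 to 0.238). Transcripts of the undeleted part of the gene and of cells outside the Cre lineage are counted here too. In MAR1 skin, where the gene is intact, Il4ra stood at 45.7, 23.2 and 9.0 CPM, against 195, 178 and 192 CPM with isotype antibody, which was a 7.24-fold fall (log2 fold change -2.86 ± 0.60, adjusted p = 0.00204, edgeR). Untreated skin had 59.2 and 104 CPM.

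**Figure D1:**
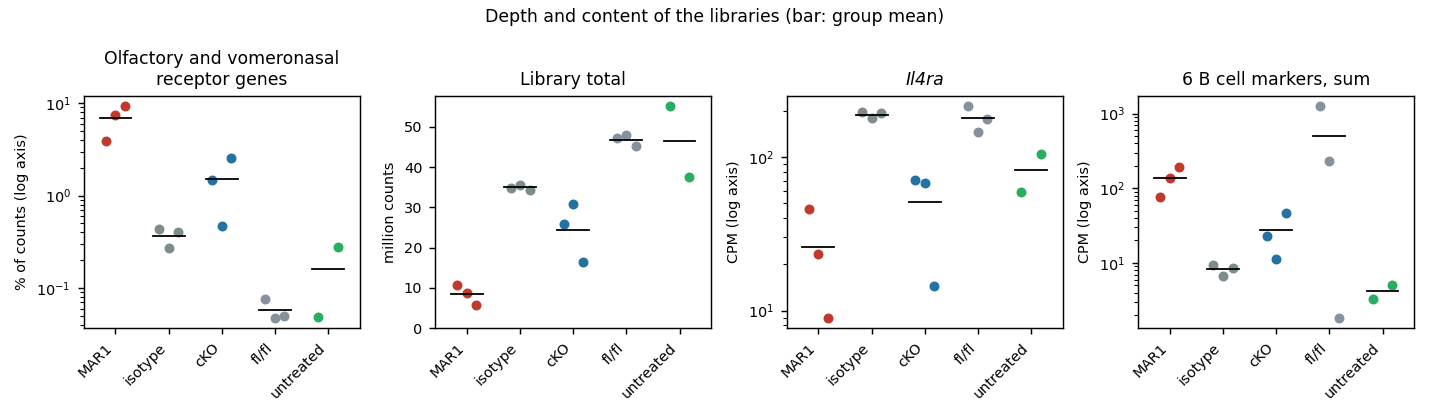
Share of counts in olfactory and vomeronasal receptor genes (%), total estimated counts, Il4ra in CPM and the summed CPM of 6 B cell markers, 1 point per library and a bar at the group mean, with log axes except for the total. MAR1 libraries were the shallowest and had the largest receptor gene share, Il4ra was lower in every MAR1 and cKO library than in any isotype or fl/fl library, and fl/fl 1 and 2 stood above fl/fl 3 in B cell transcripts.

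In MAR1 skin 7 of the 10 members changed relative to isotype skin. Arg1, Chil3, Serpinb2, Cish and Socs3 fell, and Retnla and Alox15 rose, while Ear2, Pdcd1lg2 and Socs1 did not pass the test. For 8 of the 10 the groups did not overlap. Of all tested genes, 49.1% were called in this comparison, 22.6% higher and 26.5% lower, and groups did not overlap for 68.6% of them, 32.1% with MAR1 higher and 36.4% with MAR1 lower. The members' counts have to be read against that background. The median log2 fold change was -0.76 over the members and 0 over all tested genes. Scaling by DESeq2's median-of-ratios size factors in place of TMM raised the median of all genes by 0.59, and changed the split of called genes to 6347 higher and 3645 lower, against 4724 higher and 5548 lower with TMM. Under that scaling the members kept their directions, and Ear2 passed as well (log2 fold change 2.06, adjusted p = 0.0236, edgeR). With the receptor gene share as a covariate, edgeR called 0 of the members and 0 of all genes (1542 at an unadjusted p under 0.05), while DESeq2 without the covariate called 8 of the members.

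Fewer members changed in cKO skin, where 4 of 10 fell relative to fl/fl skin, namely Chil3, Cish, Socs1 and Socs3, and none rose. The background was 18.7% of genes called, 12.7% higher and 5.98% lower. Groups did not overlap for 3 of the 10 members, all with cKO lower, against 29.4% of all genes (17% with cKO higher and 12.4% with cKO lower). All 3 feedback inhibitors and 1 of the 7 activation products were thus among the called genes. All 10 members had negative log2 fold changes, with a median of -1.44 against 0.03 over all tested genes. Without fl/fl libraries 1 and 2, the pair with salivary and lymphocyte transcripts, 0 members were called by edgeR, the median was -0.14 and 5 members had positive values. In that fit, in which the lone fl/fl library is assumed to vary like the other groups, 655 of all genes were called (5231 at an unadjusted p under 0.05) and 174 of these fell.

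**Figure D2:**
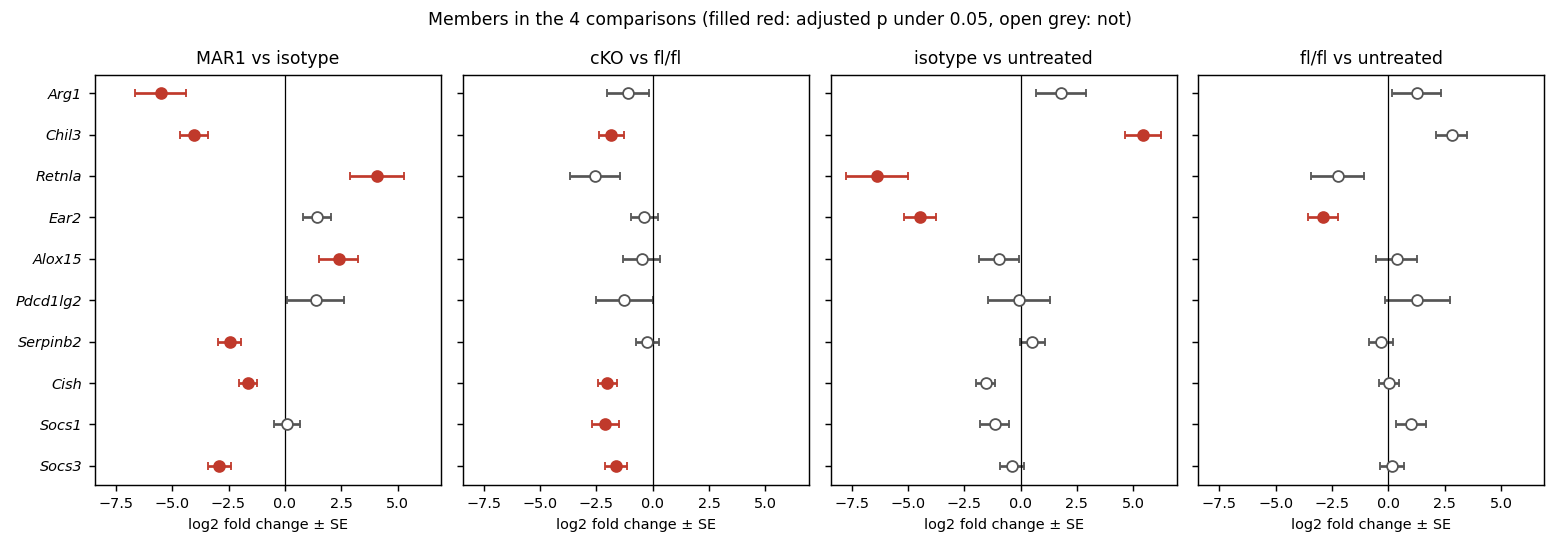
Log2 fold changes of the 10 members with standard errors for MAR1 over isotype, cKO over fl/fl, isotype over untreated and fl/fl over untreated, with filled red points where the adjusted p was under 0.05. Retnla lies far to the right in MAR1 over isotype skin and Arg1 and Chil3 far to the left, while all 10 members lie left of 0 in cKO over fl/fl skin.

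MC903 skin was also set against untreated skin. Isotype-treated MC903 skin differed from untreated skin in 3 of the 10 members, with Chil3 higher and Retnla and Ear2 lower, where 3.07% of all genes were called (1.35% higher and 1.72% lower). Groups did not overlap for 6 of the 10 members, against 48.8% of all genes (26.2% higher and 22.6% lower in isotype). In fl/fl MC903 skin Ear2 alone of the members passed, as lower, against 1.72% of all genes (0.769% higher and 0.95% lower), and groups did not overlap for 3 of the 10, against 28% (12.6% higher and 15.4% lower in fl/fl). Both comparisons use the same 2 untreated libraries, which may come from 1 mouse, and are not independent of each other. With these libraries summed to 1, Chil3 and Ear2 were still called in isotype skin, but Retnla was not (adjusted p = 0.102, edgeR), nor was Ear2 in fl/fl skin (adjusted p = 0.0934). Isotype mice had also been injected, so MC903 and antibody injection cannot be told apart in the first of them.

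**Figure D3:**
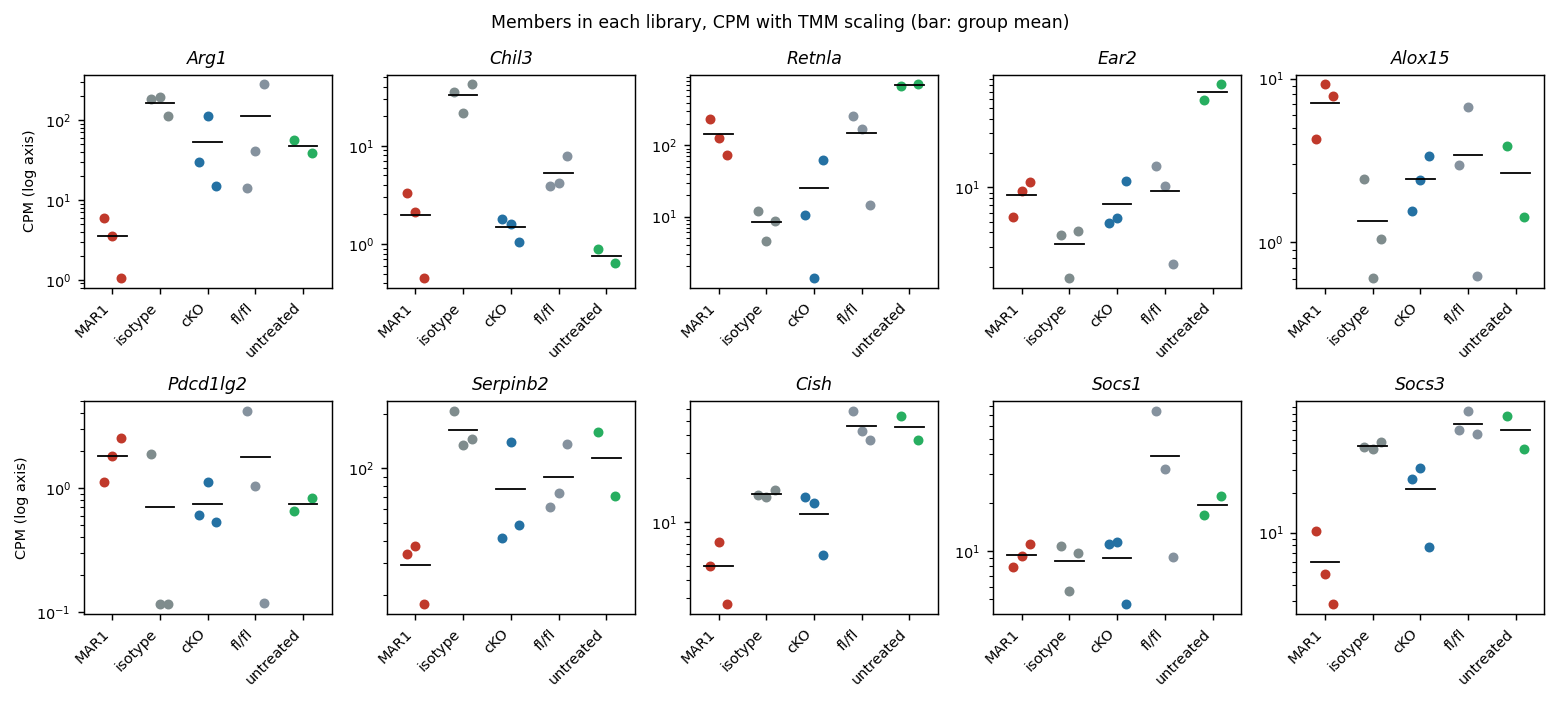
CPM of each of the 10 members in all 14 libraries on log axes, 1 panel per gene, with 1 point per library and a bar at the group mean. Arg1 and Chil3 are lowest in MAR1 or untreated libraries and highest in isotype libraries or in fl/fl 3, and Retnla and Ear2 run the other way, with their highest values in untreated skin.

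Arg1, arginase 1, hydrolyses arginine to ornithine and urea and is the best known enzyme of alternatively activated mouse macrophages. Its level was 5.92, 3.52 and 1.05 CPM in MAR1 skin, against 186, 193 and 112 CPM in isotype skin. Every MAR1 library lay far below every isotype library, a 45.6-fold fall (log2 fold change -5.51 ± 1.14, adjusted p = 0.00212, edgeR) that passed in all 6 fits with 1 library left out. The MAR1 values rest on only 7 to 68.8 estimated counts per library. The cKO libraries had 30.0, 113 and 14.9 CPM, against 14, 41.5 and 281 CPM in fl/fl. These groups overlapped, and the difference (log2 fold change -1.09 ± 0.94, adjusted p = 0.433, edgeR) was carried by fl/fl 3, since leaving it out turned the log2 fold change to 1.31. Untreated skin stood at 56.1 and 38.3 CPM. Isotype skin lay above both untreated libraries without passing the test (log2 fold change 1.79 ± 1.11, adjusted p = 0.404, edgeR), and fl/fl skin lay on either side of them.

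Chil3, also called Ym1, is a chitinase-like lectin that mouse macrophages and neutrophils secrete. Isotype skin had the highest level of the 5 groups, and the MAR1 libraries had 3.34, 2.11 and 0.45 CPM against its 35.5, 21.7 and 42.3 CPM. This 16.5-fold fall (log2 fold change -4.04 ± 0.62, adjusted p = 0.000372, edgeR) passed with any 1 library left out. In cKO skin Chil3 was at 1.80, 1.60 and 1.06 CPM, against 3.92, 4.19 and 7.93 CPM in fl/fl skin. The groups did not overlap and the gene fell 3.57-fold (log2 fold change -1.84 ± 0.57, adjusted p = 0.038, edgeR). That call was lost in each of the 6 fits with 1 library left out, with adjusted p-values of 0.0535 to 0.214. Relative to untreated skin, at 0.884 and 0.639 CPM, Chil3 rose 43.2-fold in isotype MC903 skin (log2 fold change 5.43 ± 0.79, adjusted p = 0.00472, edgeR). In fl/fl MC903 skin the values were again above both untreated libraries, with a log2 fold change of 2.80 ± 0.69 and an adjusted p of 0.0558 (edgeR), which DESeq2 called.

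Chil4 (Ym2) is a near-identical neighbour of Chil3, so estimated counts may be split between the copies. It had 12.1, 20.6 and 8.70 CPM in MAR1 skin, against 2.85, 0.0863 and 0.612 CPM in isotype skin, and all MAR1 libraries were above all isotype libraries although the test was not passed (adjusted p = 0.0745, edgeR). The sum of Chil3 and Chil4 was 15.8 ± 6.79 CPM in MAR1 skin and 34.3 ± 11.2 CPM in isotype skin (SD, n = 3 each). This difference was smaller than that of Chil3 alone, and in the sum the groups overlapped. MAR1 2, with 2.11 CPM of Chil3 and 20.6 CPM of Chil4, lay above isotype 2, with 21.7 and 0.0863 CPM. In cKO skin the sum was 4.90 ± 1.55 CPM, against 5.84 ± 2.01 CPM in fl/fl skin (SD, n = 3 each). These 2 sums lay within an SD of each other, unlike the values of Chil3 alone. Chil4 was at 4.88, 2.25 and 3.11 CPM in cKO skin, against 0, 1.47 and 0 CPM in fl/fl skin, and was at 0 in both untreated libraries. The pair thus lay in opposite directions in MAR1 and in cKO skin.

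Retnla encodes resistin-like molecule alpha (RELMα or FIZZ1), a secreted protein of alternatively activated mouse macrophages that adipose tissue also expresses. In isotype MC903 skin it was at 12.1, 4.57 and 8.78 CPM, against 689.7 and 723 CPM in untreated skin, which held the most of the 5 groups. This was an 83.1-fold fall (log2 fold change -6.38 ± 1.36, adjusted p = 0.0272, edgeR). Each of the 5 fits with 1 library left out lost that call (adjusted p 0.0605 to 0.122), while the fold change stayed between -6.72 and -5.86 on the log2 scale. In MAR1 skin Retnla was at 232, 125 and 72.7 CPM, against the 12.1, 4.57 and 8.78 CPM of isotype skin. All MAR1 libraries lay above all isotype libraries and below both untreated ones, and the rise over isotype was 16.9-fold (log2 fold change 4.08 ± 1.19, adjusted p = 0.0139, edgeR). Leaving out isotype 2 ended this call (adjusted p = 0.0575). In the genetic pair Retnla stood at 10.7, 1.37 and 62.9 CPM in cKO skin, against 262, 168 and 14.4 CPM in fl/fl skin. The high fl/fl libraries were the pair with salivary and lymphocyte transcripts, and the groups overlapped through cKO 3 and fl/fl 3 (log2 fold change -2.57 ± 1.12, adjusted p = 0.121, edgeR). Without cKO 3 the fall passed the test (log2 fold change -4.27, adjusted p = 0.0405, edgeR), and without fl/fl 1 and 2 the log2 fold change was 1.12.

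Retnla was the single member whose difference between the cKO effect and the MAR1 effect passed the test, at -6.65 ± 1.63 on the log2 scale (adjusted p = 0.0339, edgeR), where 7.96% of all genes passed, 6.13% higher and 1.82% lower. With median-of-ratios scaling the split of genes called here was 437 higher and 467 lower, against 1284 and 382 with TMM, and Retnla remained called (log2 difference -6.94, adjusted p = 0.0439, edgeR). It passed in 4 of 12 fits with 1 library left out, those without cKO 2, cKO 3, fl/fl 3 or MAR1 1, and without fl/fl 1 and 2 it was -2.96 (adjusted p = 0.341). Arg1 had a difference of 4.43 ± 1.39 (adjusted p = 0.0642), Serpinb2 of 2.22 ± 0.70 (adjusted p = 0.0632), Chil3 of 2.20 ± 0.80 (adjusted p = 0.0911) and Socs1 of -2.22 ± 0.82 (adjusted p = 0.097), none of which passed in edgeR. The other 5 members had adjusted p-values of 0.123 to 0.683. DESeq2 called Arg1, Alox15 and Socs1 beside Retnla (adjusted p = 0.0143, 0.0247 and 0.0162), and edgeR called 5 members when cKO 3 or fl/fl 3 was left out.

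Ear2, an eosinophil-associated ribonuclease of the mouse Ear family, whose members are near-identical in sequence, followed a like order of groups. Isotype MC903 skin had 3.82, 1.58 and 4.08 CPM, against 58.5 and 81.4 CPM in untreated skin, and was 22.1-fold lower (log2 fold change -4.47 ± 0.71, adjusted p = 0.0065, edgeR), and this passed in all 5 fits with 1 library left out. Fl/fl MC903 skin, at 15.5, 10.2 and 2.09 CPM, was 7.54-fold lower than untreated skin (log2 fold change -2.91 ± 0.67, adjusted p = 0.0436, edgeR), a call that ended without fl/fl 2 or without untreated 2 (adjusted p up to 0.22). The MAR1 libraries, with 5.49, 9.24 and 11.1 CPM, all lay above the isotype libraries, but the difference missed the threshold (log2 fold change 1.44 ± 0.62, adjusted p = 0.0655, edgeR). In cKO skin Ear2 stood at 4.85, 5.35 and 11.4 CPM and overlapped fl/fl skin (log2 fold change -0.37 ± 0.60, adjusted p = 0.697, edgeR).

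Adipocyte, macrophage and dendritic cell transcripts also differed between these libraries. The 8 adipocyte markers summed to 2929, 1510 and 1442 CPM in MAR1 skin, to 1589 to 1693 CPM in isotype skin and to 9728 and 7145 CPM in untreated skin, the group with most Retnla and Ear2. The adipocyte sums were 3674, 1161 and 3111 CPM in cKO skin, against 5005, 4818 and 1186 CPM in fl/fl skin, so the lowest library of each genotype was also its lowest in Retnla. In MAR1 over isotype skin 1 of the 8 was called higher and 1 lower, against 22.6% and 26.5% of all genes. Adipoq averaged 20.9 CPM in MAR1 and 49.3 CPM in isotype skin, while Lep averaged 19.8 and 2.15 CPM. The adipocyte sum thus mixes directions too. The 13 macrophage markers, none of them at 0, summed to 443 to 1342 CPM in MAR1 and 1521 to 1873 CPM in isotype libraries. The sums were 681 to 1001 CPM in cKO, 1705 to 2863 CPM in fl/fl and 2265 to 2963 CPM in untreated libraries. In MAR1 over isotype skin 1 of the 13 was called higher and 7 lower, against 22.6% and 26.5% of all genes. C1qa was at 487 ± 334 CPM in MAR1 and 295 ± 42.6 CPM in isotype skin, while C1qb was at 16.2 ± 7.82 and 235 ± 38.6 CPM (SD, n = 3 each). The sum thus mixes markers that lay in opposite directions. Dendritic cell markers summed to 294 to 475 CPM in MAR1 and 123 to 200 CPM in isotype skin, and the marker H2-Ab1 alone averaged 242 and 133 CPM. Of the 6 eosinophil markers, which summed to 19.6 to 32.7 CPM in MAR1 and 1.84 to 4.61 CPM in isotype skin, the granule gene Epx was at 0 in both groups and Prg3 at 0 in MAR1 skin. Most of the sum was Il5ra, the interleukin-5 receptor gene, at 25.1 ± 9.28 CPM in MAR1 and 1.52 ± 0.404 CPM in isotype skin (SD, n = 3 each), which was the 1 marker called of the 5 tested. The part of these cell types in the values of Retnla, Ear2 and the other members was not tested.

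**Figure D4:**
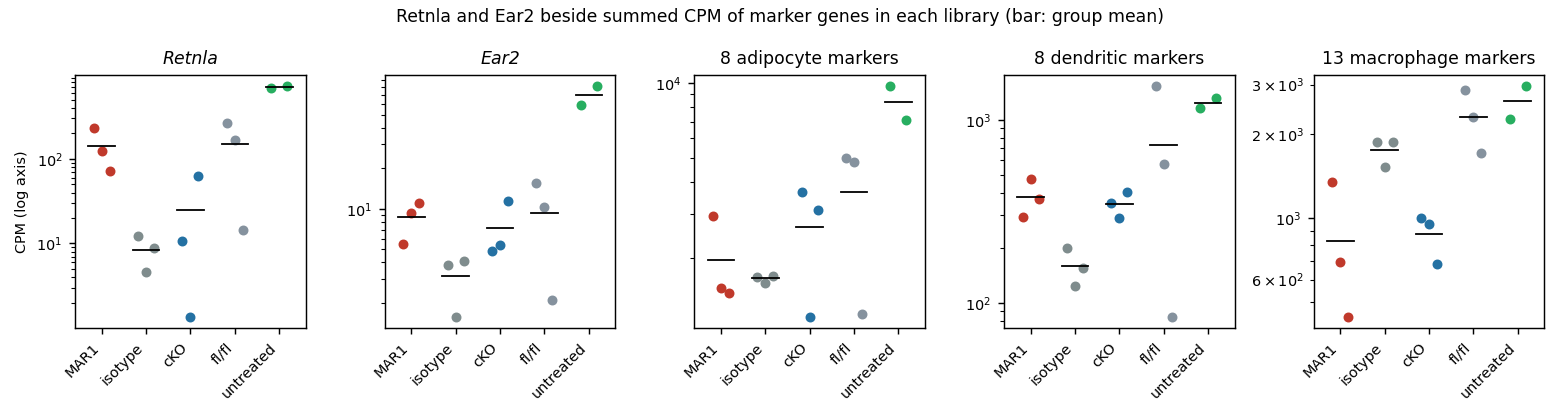
CPM of Retnla and Ear2 beside the summed CPM of adipocyte, macrophage and dendritic cell markers in each of the 14 libraries, log axes. Untreated libraries are highest for Retnla, Ear2 and adipocyte markers, and fl/fl 1 and 2 stand above fl/fl 3 in all of these.

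Alox15, a lipoxygenase that oxygenates arachidonic and linoleic acid, was at 4.29, 9.24 and 7.80 CPM in MAR1 skin, against 2.42, 0.604 and 1.05 CPM in isotype skin. The groups did not overlap, and the 5.22-fold rise (log2 fold change 2.38 ± 0.86, adjusted p = 0.0339, edgeR) rested on 21 to 92 estimated counts per library. It was lost when isotype 2, isotype 3, MAR1 2 or MAR1 3 was left out (adjusted p up to 0.117). In cKO skin Alox15 had 1.56, 2.41 and 3.35 CPM, against 2.97, 6.68 and 0.619 CPM in fl/fl skin, and the groups overlapped. Untreated skin, at 3.87 and 1.42 CPM, overlapped both MC903 control groups.

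Pdcd1lg2 encodes PD-L2, a ligand of the T cell receptor PD-1, and was the least counted of the members in isotype skin. It had 1.11, 1.81 and 2.55 CPM in MAR1 skin, against 1.88, 0.115 and 0.117 CPM in isotype skin, where isotype 2 and 3 held 4 estimated counts each. The cKO libraries had 0.601, 1.11 and 0.529 CPM, against 4.22, 1.05 and 0.118 CPM in fl/fl. No comparison of Pdcd1lg2 passed the test, and fl/fl 1, its highest library, was also the highest in B cell and dendritic cell markers. Dendritic cell markers summed to 1528, 575 and 84.1 CPM in fl/fl 1, 2 and 3. Most of the sum in fl/fl 1 was the listed marker H2-Ab1, at 1285 CPM in its highest fl/fl library. Other listed markers were far lower in fl/fl skin, with Xcr1 at 5.01 CPM and Clec9a at 3.76 CPM at most.

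Serpinb2, plasminogen activator inhibitor 2, is a serine protease inhibitor made by macrophages and by keratinocytes. MAR1 skin had 33.7, 37.2 and 17.8 CPM, against 208, 135 and 144 CPM in isotype skin, a 5.48-fold fall without overlap (log2 fold change -2.45 ± 0.52, adjusted p = 0.00206, edgeR) that passed with any 1 library left out. In cKO skin Serpinb2 was at 41.1, 139.7 and 49.1 CPM, against 61.0, 73.1 and 136 CPM in fl/fl skin, and the groups overlapped (adjusted p = 0.773, edgeR). Untreated skin spanned 158 and 70.6 CPM, and neither MC903 control group differed from it by the test. Keratinocyte markers summed to 2865 to 6175 CPM in MAR1 and 18630 to 36170 CPM in isotype libraries, and the part of this difference in the fall of Serpinb2 was not tested.

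The feedback inhibitors fell in both experiments, though not all in both. Cish, a SOCS family member that STAT5 and other STAT proteins induce and that binds activated cytokine receptors, was at 4.97, 7.23 and 2.70 CPM in MAR1 skin, against 15.2, 14.8 and 16.5 CPM in isotype skin. It fell 3.09-fold (log2 fold change -1.63 ± 0.41, adjusted p = 0.00545, edgeR). In cKO skin it stood at 14.8, 13.5 and 5.93 CPM, against 58.6, 42.7 and 36.9 CPM in fl/fl skin, and fell 4.03-fold (log2 fold change -2.01 ± 0.40, adjusted p = 0.00517, edgeR). Neither pair of groups overlapped, and both calls passed in all 6 fits that left out 1 library, although the cKO call ended when fl/fl 1 and 2 were both left out (log2 fold change -1.41, adjusted p = 0.113). Thinning all libraries to the depth of the shallowest ended both calls of Cish (log2 fold change -1.10 with adjusted p = 0.0769 in MAR1 over isotype, and -1.26 with adjusted p = 0.0841 in cKO over fl/fl, edgeR). Thinning also raised the log2 fold changes of all genes, by a median of 0.42 in MAR1 over isotype and 0.439 in cKO over fl/fl. Untreated skin had 53.7 and 36.8 CPM, a span that overlapped fl/fl skin and lay above all isotype libraries (log2 fold change of isotype over untreated -1.55 ± 0.43, adjusted p = 0.0689, edgeR). DESeq2 called this last difference (adjusted p = 0.00573).

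Socs3 inhibits JAK kinases bound to gp130 and related receptors. It had 10.3, 4.82 and 2.85 CPM in MAR1 skin, against 44.6, 43.3 and 48.6 CPM in isotype skin, a 7.50-fold fall (log2 fold change -2.91 ± 0.52, adjusted p = 0.000779, edgeR) that passed in all 6 fits with 1 library left out. The cKO libraries had 25.7, 31.1 and 7.81 CPM, against 60.2, 84.4 and 55.8 CPM in fl/fl, without overlap and 3.10-fold lower (log2 fold change -1.63 ± 0.49, adjusted p = 0.0339, edgeR). This second call was lost in each of the 6 fits with 1 library left out (adjusted p 0.0511 to 0.216). Untreated skin, at 76.4 and 43.4 CPM, overlapped isotype and fl/fl skin.

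Socs1, an inhibitor of JAK kinases downstream of interferon-γ and interleukin-4 receptors, differed from its relatives in the MAR1 experiment. Its 7.89, 9.24 and 11.1 CPM in MAR1 skin overlapped the 10.7, 5.64 and 9.68 CPM of isotype skin (log2 fold change 0.11 ± 0.58, adjusted p = 0.878, edgeR). In cKO skin Socs1 had 11, 11.3 and 4.64 CPM, against 74.7, 32.5 and 9.14 CPM in fl/fl skin, and fell 4.31-fold (log2 fold change -2.11 ± 0.59, adjusted p = 0.0256, edgeR). The groups overlapped, since fl/fl 3 lay below cKO 1 and 2. The high values were those of fl/fl 1 and 2, the libraries with lymphocyte transcripts, and without both of them the log2 fold change was 0.26 (adjusted p = 0.829). Leaving out cKO 2, cKO 3 or fl/fl 1 alone also ended the call (adjusted p up to 0.295). T cell markers summed to 1018, 178 and 8.08 CPM in fl/fl 1, 2 and 3, and their part in the Socs1 values was not tested. Untreated skin stood at 16.6 and 22.0 CPM.

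Lists of related genes were read in the same fit. Of 16 tested genes of the interleukin-4 and interleukin-13 signalling pathway, 8 fell and 0 rose in MAR1 skin, against 26.5% of all tested genes lower and 22.6% higher, with a median log2 fold change of -1.17 against 0 over all genes. These included Stat6, the transcription factor of the pathway (log2 fold change -2.06, adjusted p = 0.000283, edgeR), the kinase genes Jak1 (-2.36) and Jak2 (-2.09) and the adaptor Irs2 (-2.25). In cKO skin 3 of the 16 fell, namely Il4ra, the shared receptor chain Il2rg (-2.68) and the phosphatase Ptpn6 (-1.65), and Il13ra2, which encodes a decoy receptor for interleukin-13, rose (log2 fold change 1.34, adjusted p = 0.0333, edgeR), against 5.98% of all genes lower and 12.7% higher. With 1 library left out, Il13ra2 was lost without cKO 1 or fl/fl 2 (adjusted p up to 0.0796), Il2rg in each fit but that without fl/fl 3 (up to 0.334), and Ptpn6 without cKO 1, cKO 2, cKO 3 or fl/fl 1 (up to 0.733). Without fl/fl 1 and 2, Il2rg was at 0.96 and Ptpn6 at 0.39 on the log2 scale. Il13ra2 was also 4.82-fold higher in isotype MC903 skin than in untreated skin (log2 fold change 2.27, adjusted p = 0.0252, edgeR), a call lost in each of the 5 fits with 1 library left out (adjusted p 0.052 to 0.174). Its log2 fold change in fl/fl over untreated skin was 1.85 (adjusted p = 0.0667).

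Of 24 other alternative activation genes, 3 rose and 8 fell in MAR1 skin, against 22.6% higher and 26.5% lower of all tested genes. The eosinophil-attracting chemokine gene Ccl24 was at 58.8, 31.0 and 13.8 CPM in MAR1 skin, against 3.02, 1.09 and 4.67 CPM in isotype skin (log2 fold change 3.56), and so rose like Retnla. Myc (-2.57), the lipid regulator Pparg (-2.32) and the transglutaminase Tgm2 (-2.16) fell. In cKO skin 0 of the 24 rose and 4 fell, against 12.7% of all genes higher and 5.98% lower. Those that fell were Tgm2 (-1.68), the coagulation factor gene F13a1 (-1.19), Myc (-1.28) and the chemokine gene Ccl22 (-3.90). With 1 library left out, Myc was lost in all 6 fits (adjusted p 0.0503 to 0.252), F13a1 without cKO 2, cKO 3, fl/fl 1 or fl/fl 3 (up to 0.227), Ccl22 without cKO 2, cKO 3 or fl/fl 1 (up to 0.117), and Tgm2 without cKO 3 (0.081). Ccl22 was at 10.5, 5.48 and 5.82 CPM in cKO skin, against 261, 59.5 and 5.13 CPM in fl/fl skin, the same order of fl/fl libraries as for Socs1, and without fl/fl 1 and 2 its log2 fold change was 0.79. In isotype over untreated skin the lectin genes Mgl2 (-3.14) and Cd209a (-3.14) were called lower, against 1.72% of all genes, but both calls were lost in each of the 5 fits with 1 library left out (adjusted p 0.0505 to 0.0973 for Mgl2 and 0.105 to 0.135 for Cd209a). In fl/fl over untreated skin 0 of the 24 were called by edgeR, with F13a1 at -1.05 (adjusted p = 0.103) and Mgl2 at -2.00 (adjusted p = 0.107).

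Relatives of the members by sequence family changed in both directions. In MAR1 skin 5 of 26 tested relatives rose and 9 fell, near the 22.6% higher and 26.5% lower of all tested genes, among them the lipoxygenases Alox8 (log2 fold change 3.55) and Alox12b (-4.62) on either side of 0 and the serpins Serpinb5 (-2.45) and Serpinb10 (-4.12). Socs2, another relative of Cish, rose in MAR1 skin (log2 fold change 1.15, adjusted p = 0.00947, edgeR) where Cish and Socs3 fell. Its 52.8, 78.9 and 86.8 CPM in MAR1 skin all lay above the 30.9, 37.7 and 30.0 CPM of isotype skin. The rest of the family did not share this rise. Mean CPM was lower in MAR1 than in isotype skin for Socs4 (18.7 against 40.4), Socs5 (50.2 against 61.7), Socs6 (30.1 against 57.9) and Socs7 (13.2 against 18.9). In cKO skin Alox12e (2.25) and the chitinase-like gene Chil6 rose and Alox5 (-1.43) fell, against 12.7% of all genes higher and 5.98% lower. The Alox5 call was lost in each of the 6 fits with 1 library left out (adjusted p 0.0543 to 0.233), and that of Alox12e without cKO 1 (0.0519). Chil6 was at 2.30, 0.163 and 3.76 CPM in cKO skin and at 0 in all fl/fl libraries, so that its cKO mean was at least 26.3-fold higher, with 3 counts per fl/fl library taken as the floor. Retn, the adipocyte hormone resistin, was called lower in isotype over untreated skin (log2 fold change -3.52), as were Alox12e (-3.68) and Alox5 (-1.72), against 1.72% of all genes. With 1 library left out, Retn (adjusted p 0.117 to 0.175) and Alox5 (0.129 to 0.273) were lost in all 5 fits, and Alox12e in 4 of 5, those without isotype 1, 2 or 3 or untreated 1 (up to 0.137).

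**Figure D5:**
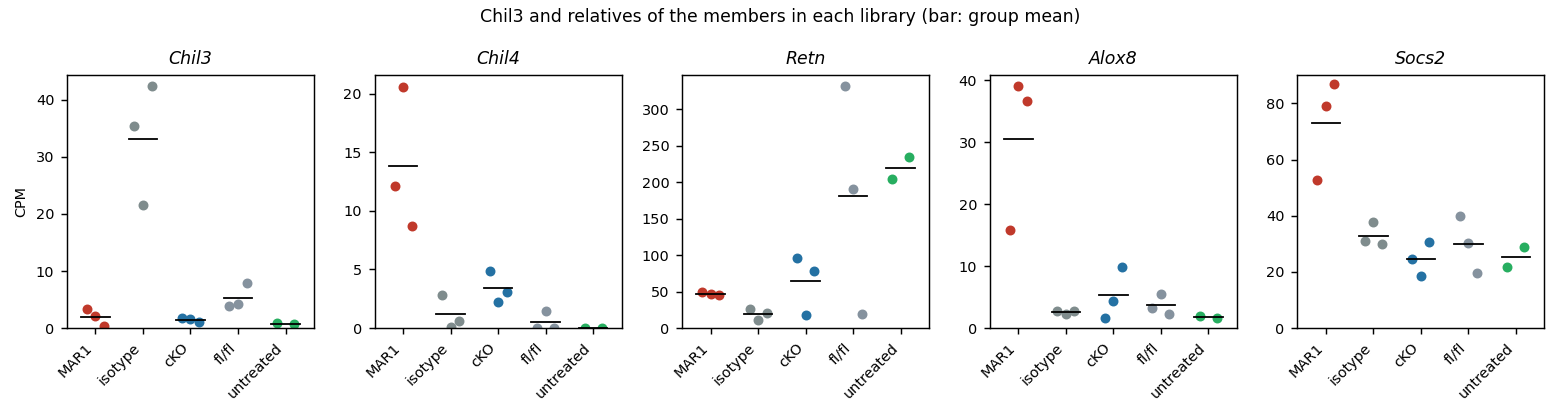
CPM of Chil3 and of the relatives Chil4, Retn, Alox8 and Socs2 in each library on linear axes from 0, with a bar at the group mean. Isotype libraries are highest for Chil3 and MAR1 libraries for Chil4, and Retn is highest in fl/fl 1 and in untreated skin.

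Genes whose levels followed each member most closely were ranked by Pearson's r of log2(CPM + 0.5) over the 14 libraries among 15505 candidates, as a description; all of these genes share the libraries and their depth. Retnla was followed most closely by Plac8 (r = 0.943), Ivd (0.94) and Sfrp4 (0.932), and Ear2 by Mup18 (0.94), the adipocyte lipid droplet gene Plin1 (0.935) and Aff3 (0.926). Socs1 was nearest to Nfkbie (0.946), and Pdcd1lg2 to the T cell transcription factor gene Tbx21 (0.876). Arg1 was nearest to Rps6ka3 (0.982), Chil3 to the zinc transporter gene Slc39a14 (0.933), Alox15 to Cdc25a (0.924) and Serpinb2 to Nipa2 (0.969). Cish was nearest to Ly6e (0.985).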

How the data were processed

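The authors deposited expected counts per gene for 14 mouse skin libraries. Salmon 1.2.1, the build GRCm39 and DESeq2 1.44.0 appear in the submitters' processing notes without roles. The estimated counts were rounded and tested with edgeR 4.0.16 (R 4.3.3): counts were scaled by TMM, low genes removed by filterByExpr, and 5 group means fitted at once (robust quasi-likelihood, 9 residual degrees of freedom, two-sided). The call threshold was 0.05 on p-values adjusted by Benjamini and Hochberg. The series' design gives 1 mouse per sample, which is uncertain for the untreated pair, and no pair of libraries matched within sampling noise. DESeq2 1.42.0, other scalings, filters and sample subsets were alternatives, and the code was tested on simulated data. Promoter windows came from RefSeq on GRCm38.p6, not the build of the counts. The members and lists were chosen with earlier results of these data known, and the adipocyte list after the values were seen. Named genes were all members, Il4ra, genes of the lists and the genes nearest to most members. In each list and comparison up to 4 called genes (or 2 if none) with the smallest p were picked. Some of these are not described. They are the list genes picked in the difference between effects and, in fl/fl over untreated skin, the relatives and the main value of Il2rg. Further single values were chosen after their values were seen.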

Additional observations from a re-analysis of the deposited data

Results flagged for a closer look

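Retnla was picked out because its effect differed between the experiments by a test of the difference itself: the log2 fold change of cKO over fl/fl skin minus that of MAR1 over isotype skin was -6.65 ± 1.63 (adjusted p = 0.0339, edgeR). The log2 fold changes behind it were -2.57 in cKO over fl/fl skin, which was not called (adjusted p = 0.121, edgeR), and 4.08 in MAR1 over isotype skin. The difference passed in 4 of 12 fits with 1 library left out, and was lost without the count filter (adjusted p = 0.0674, edgeR). Without fl/fl 1 and 2 it was -2.96.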

How the results depend on the processing

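Calls of the members moved as follows. In cKO over fl/fl skin the 4 members called became 1 with only the compared groups fitted, and 0 with libraries thinned to the shallowest, with the receptor gene share as a covariate, or without fl/fl 1 and 2 (1 to 2 with 1 library left out). In MAR1 over isotype skin the 7 became 0 with the receptor covariate and 5 with thinning, which ended the calls of Alox15 (adjusted p = 0.0939) and Cish (0.0769), by edgeR (5 to 7 with 1 left out). In isotype over untreated skin the 3 became 6 with only the compared groups, and 2 without the count filter (Retnla lost, adjusted p = 0.0722), with untreated libraries summed (Retnla, 0.102) or with thinning (Ear2, 0.0536), by edgeR (2 with any 1 left out). In fl/fl over untreated skin the 1 became 0 with median-of-ratios scaling, only the compared groups, thinning or summed untreated libraries, and 2 without the count filter, with 1 CPM required, with DESeq2 or without fl/fl 1 and 2 (0 to 1 with 1 left out). The difference between effects had 0 without the filter or without fl/fl 1 and 2, and 4 with DESeq2 or the covariate (0 to 5 with 1 left out). Over all genes, the calls that moved by more than 1.5 times were, in MAR1 over isotype, 0 with the covariate against 10272, and in cKO over fl/fl 1410 with only the compared groups, 5995 with DESeq2, 14 with the covariate and 655 without fl/fl 1 and 2, against 3908 (2335 to 4234 with 1 library left out). Isotype over untreated had 3444 with only the compared groups, 253 with the block, 102 with summed untreated libraries, 2214 with DESeq2 and 382 with thinning, against 643 (108 to 620). Fl/fl over untreated had 0 by edgeR with only the compared groups (1892 at an unadjusted p under 0.05), 224 with the block, 2124 with DESeq2, 173 with thinning and 985 without fl/fl 1 and 2, against 360 (65 to 736). The difference between effects had 904 with median-of-ratios scaling, 998 with only the compared groups, 537 with the block, 3730 with DESeq2, 1091 with thinning, 3790 with the covariate and 7 without fl/fl 1 and 2, against 1666 (1 to 4864).

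Signs turned in these members and related genes, none of them past the threshold after the turn; the cause was not tested. With thinning: Serpinb2 in cKO over fl/fl 0.072, Pdcd1lg2 in isotype over untreated 0.20, and in fl/fl over untreated Alox15 -0.16, Cish -0.044 and Socs3 -0.017. With the covariate: Ear2 -0.44 and Socs1 -0.35 in MAR1 over isotype, Arg1 2.48, Serpinb2 1.99 and Socs3 0.65 in cKO over fl/fl, Socs3 0.54 in isotype over untreated, and in fl/fl over untreated Arg1 -0.0085, Cish -0.15 and Socs3 -0.38. With untreated libraries summed, Cish in fl/fl over untreated was -0.058. Without fl/fl 1 and 2: in cKO over fl/fl Retnla 1.12, Ear2 2.08, Alox15 2.27, Pdcd1lg2 2.90, Socs1 0.26, Il2rg 0.96, Ptpn6 0.39 and Ccl22 0.79, in fl/fl over untreated Alox15 -2.10, Pdcd1lg2 -2.67, Serpinb2 0.24, Cish -0.33, Socs1 -1.15, Socs3 -0.13 and Il2rg -1.66, and in the difference between effects Ear2 0.67, Pdcd1lg2 1.55, Cish 0.22 and Socs1 0.16. With 1 library left out, log2 ranges that crossed 0 were, in cKO over fl/fl, Arg1 -2.01 to 1.31, Ear2 -0.51 to 0.62, Alox15 -0.58 to 0.44, Pdcd1lg2 -1.53 to 0.74 and Serpinb2 -0.64 to 0.58, in MAR1 over isotype Socs1 -0.12 to 0.30, in isotype over untreated Pdcd1lg2 -2.64 to 0.57 and Socs3 -0.45 to 0.069, in fl/fl over untreated Arg1 -0.91 to 1.72, Alox15 -0.56 to 1.27, Pdcd1lg2 -0.51 to 1.67, Serpinb2 -0.88 to 0.35, Cish -0.29 to 0.32, Socs1 -0.054 to 1.31 and Socs3 -0.21 to 0.62, and in the difference between effects Cish -0.67 to 0.25.

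Replicate numbers did not pair the libraries: same-numbered deviations correlated at -0.128 to 0.0745 (MAR1 and isotype) and -0.0846 to 0.14 (cKO and fl/fl). With the replicate block the members called numbered 6 in MAR1 over isotype, 3 in cKO over fl/fl, 2 in isotype over untreated, 0 in fl/fl over untreated and 0 in the difference between effects. Thinning, the covariate and the omission of fl/fl 1 and 2 were chosen after seeing the data. With 2 or 3 mice a group, and 3 to 92 counts behind the MAR1 values of Chil3, Alox15 and Pdcd1lg2, smaller differences were not detectable at this depth.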
